A study of Mus musculus with 168 samples.

Results

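Spleen cells sorted as CD4+ from mice given plain vehicle were compared between 2 sets of experiments, to describe which cell populations the sorts contained. The sets were 4 arrays whose sample titles begin with J3, J6 or J8, against 3 arrays whose titles begin with J2 or J25, so 7 of the 39 spleen CD4 (T4) arrays and of the 168 arrays in the series. They were chosen by cell type, vehicle, number of treatments and title prefix, with no use of measured values. The title prefixes are read here as experiments, and the labels give no dates for them. The series compared compounds with vehicle in sorted mouse immune cells on Affymetrix Mouse Gene 1.0 ST arrays.

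The J3/J6/J8 set held J3.36 (14 treatments, 15 hours since the last), J6.56 (15 treatments, 15 hours), J8.64 (14 treatments, 17 hours) and J8.66 (14 treatments, 14 hours). The J2/J25 set held J2.12 (14 treatments, 14 hours), J25.11 (14 treatments, 18 hours) and J25.12 (14 treatments, 18 hours). All 7 mice were male C57BL/6 animals labelled as 6 weeks old, and all were given 0.5% MC as vehicle. The labels give the same sorting marker, CD4+, and no exclusion marker for both sets, so they record no difference in gate. The labels do not say whether animals were pooled. P-values measure the spread between these arrays, which the labels tie to separately numbered animals. They do not measure the spread between experiments, since J8.64 and J8.66 share an experiment, as do J25.11 and J25.12.

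A CD4+ sort of spleen holds several kinds of T cell. Naive cells recirculate through lymphoid organs and carry homing receptors, while activated and memory cells carry adhesion molecules, chemokine receptors and effector genes. Regulatory T cells restrain responses, follicular helper T cells assist B cells, and innate-like T cells such as NKT cells carry receptors shared with NK cells. Some dendritic cells also carry CD4 at their surface. In bulk samples, fewer cells of a type and less RNA per cell cannot be told apart.

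The array correlations over all probe sets among the 7 arrays ran between 0.9436 and 0.9959. J25.11 and J25.12 were the closest pair, and J8.64 took part in the lowest correlation, with J2.12. Within its own set, J8.64 had 0.9649 with J3.36, 0.9699 with J6.56 and 0.9549 with J8.66. These were lower than the 0.9746 to 0.979 of J3.36 and J6.56 with the J2/J25 arrays. The deposited values had array medians of 123.5 to 131.2 in these arrays, and no pair of the 168 arrays was identical. Values below are log2 of the deposited intensity, and differences are J3/J6/J8 minus J2/J25. The number of arrays limits the precision.

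Genes of naive T cells were lower in J3/J6/J8, and genes of activated, memory, regulatory, follicular helper and innate-like T cells were higher, while most of the T cell genes common to all of these did not pass the test. Of 10292 genes tested with limma, 899 were higher (8.7% of those tested) and 252 lower (2.45%) at a Benjamini-Hochberg adjusted p under 0.05, which makes 11.2% called in all. Among these, 368 were over 2-fold higher and 56 over 2-fold lower. The median difference of all tested genes was 0.02. A gene was tested if it was above the array median on at least 3 of the 7 arrays, so a gene could enter through J3/J6/J8 alone. This held for 334 tested genes, of which 180 were called higher. Such members are named with their lists because their entry depended on being high in J3/J6/J8. Through J2/J25 alone, which needed all 3 of its arrays above the median, 74 genes entered. The filter thus admitted more genes through J3/J6/J8 alone than through J2/J25 alone. With quantile normalization the split was 748 higher and 360 lower. Leaving out both J25 arrays, which leaves J2.12 alone against 4 arrays, left 16 called genes, all of them higher. In that smaller comparison the lists described here had 0 of 12 naive, 6 of 15 activated and memory, 1 of 13 regulatory, 1 of 10 follicular helper, 0 of 9 innate-like and 0 of 15 cell cycle genes called, and the medians were -1.05, 2.04, 1.34, 1.30, 1.75 and 0.83 in that order. The 2 sets of values did not overlap for 29.3% of the tested genes (17.7% with J3/J6/J8 higher and 11.6% with J3/J6/J8 lower).

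**Figure D1:**
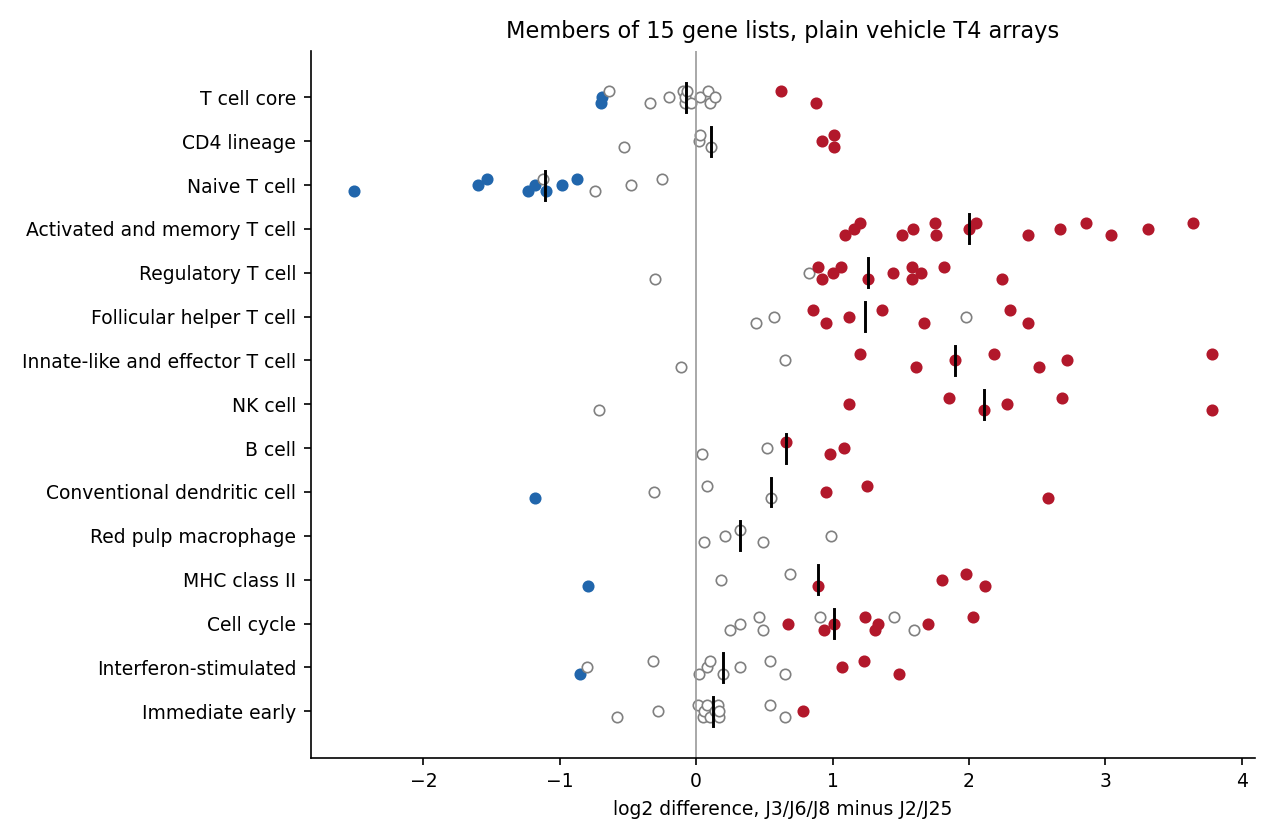
Members of 15 gene lists in the plain vehicle T4 arrays: the x axis is the log2 difference, J3/J6/J8 minus J2/J25, each point is a tested gene, filled where its adjusted p was under 0.05 (red higher, blue lower), and the black bar is the list's median. The 15 tested activated and memory genes lie at 1.09 or above, and the 12 naive genes at -0.25 or below.

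Most of the shared T cell genes did not pass the test. Cd3e, a subunit of the T cell receptor complex, had 12.47, 12.60, 12.63 and 12.40 in J3.36, J6.56, J8.64 and J8.66, against 12.58, 12.42 and 12.70 in J2.12, J25.11 and J25.12. These values overlapped, with a difference of -0.04 (limma adjusted p = 0.866). Of 18 shared T cell genes, 16 were measured and all 16 were tested, with a median of -0.08. Among them 2 were higher and 2 lower (12.5% each, against 8.7% and 2.45% over all tested genes). The higher ones were Cd3d (0.88), another subunit of the receptor complex, and Zap70 (0.62), a kinase that acts at the receptor. The lower ones were Cd247 (-0.69), the zeta chain of that complex, and Txk (-0.70), a kinase of T cells.

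Cd4 itself, the coreceptor used for the sort, had 12.01, 12.37, 11.68 and 10.95 in J3/J6/J8, against a mean of 12.28 ± 0.05 in J2/J25 (SD, n = 3). J8.66 was the lowest of the 7, the sets overlapped, and the difference of -0.53 did not pass (adjusted p = 0.294). Of the 7 CD4 lineage genes tested, 3 were higher and none lower: Gata3 (1.01), Izumo1r (0.92) and St6galnac3 (1.01). St6galnac3 entered through J3/J6/J8 alone, and 2 of the other 6 were higher, against 8.7% of all tested genes. Zbtb7b, the factor that directs CD4 lineage choice, differed by 0.03 (adjusted p = 0.925), and by -0.05 with quantile normalization. Of 6 genes of CD8 T cells, 4 were tested and 2 were higher, Klrc1 (3.70), which entered through J3/J6/J8 alone, and Eomes (1.12), both also genes of NK cells. Cd8a, which defines CD8 T cells, was under the median on all 7 arrays. Cd8b1 differed by -0.29 (adjusted p = 0.352) here and by -0.74 (adjusted p = 0.00876) in T4 arrays of mice given other agents.

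Genes of naive T cells were lower in J3/J6/J8. Of the 14 genes in that list, 12 were measured and tested, with a median of -1.11 against 0.02 over all genes. Among the 12, 8 were lower (66.7%, against 2.45% over all tested genes) and none higher. Igfbp4, which encodes an insulin-like growth factor binding protein, had 9.60, 9.21, 8.45 and 7.98 in J3/J6/J8, against 11.23, 11.42 and 11.32 in J2/J25. The sets did not overlap, and J8.66 was the lowest; the difference was -2.51 ± 0.35 (SE, adjusted p = 0.00292). Lef1, a transcription factor of naive and immature T cells, had 11.29, 11.21, 11.15 and 10.94 in J3/J6/J8, each below every J2/J25 value, with a difference of -1.10 ± 0.13 (SE, adjusted p = 0.00157).

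Ccr7, the receptor that directs cells to the T cell zones, had 11.54, 11.56, 11.29 and 10.81 in J3/J6/J8, against 12.31, 12.60 and 12.54 in J2/J25. The sets did not overlap, and the difference was -1.18 (adjusted p = 0.00712). Bach2, a repressor of effector genes, Actn1, an actin-binding protein, and Satb1, a chromatin organiser, fell by 1.60, 1.53 and 1.23 on the log2 scale. The members that did not pass were Il7r (-0.48), Klf2 (-0.25), Dapl1 (-1.12) and Il6ra (-0.74). Il7r had 11.12 in J8.64 and 12.07 to 12.13 in the other J3/J6/J8 arrays.

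Genes of activated and memory T cells were higher in J3/J6/J8. Of 16 such genes, all were measured and 15 tested, with a median of 2.0. All 15 were higher, against 8.7% of all tested genes. S100a6 and Prdm1 entered through J3/J6/J8 alone, and the other 13 were all higher. Cxcr6, a chemokine receptor of effector and tissue-resident T cells, had 10.40, 10.98, 11.28 and 11.10 in J3/J6/J8, against 7.61, 7.14 and 7.16 in J2/J25. Each J3/J6/J8 value was above each J2/J25 value, and the difference was 3.64 ± 0.22 (SE, adjusted p = 9.38e-05).

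S100a6, a calcium-binding protein, had 8.7, 8.90, 8.83 and 8.98 in J3/J6/J8, against 6.32, 6.22 and 6.04 in J2/J25, a difference of 2.67 ± 0.13 (SE, adjusted p = 7.09e-05). Cxcr3, a chemokine receptor of Th1 cells, had 11.14, 11.30, 11.70 and 11.29 against 8.58, 8.53 and 8.40, a difference of 2.86. Nkg7, a cytotoxic granule protein, and Ccl5, a chemokine of effector T cells, were higher by 3.3 and 3.04.

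**Figure D2:**
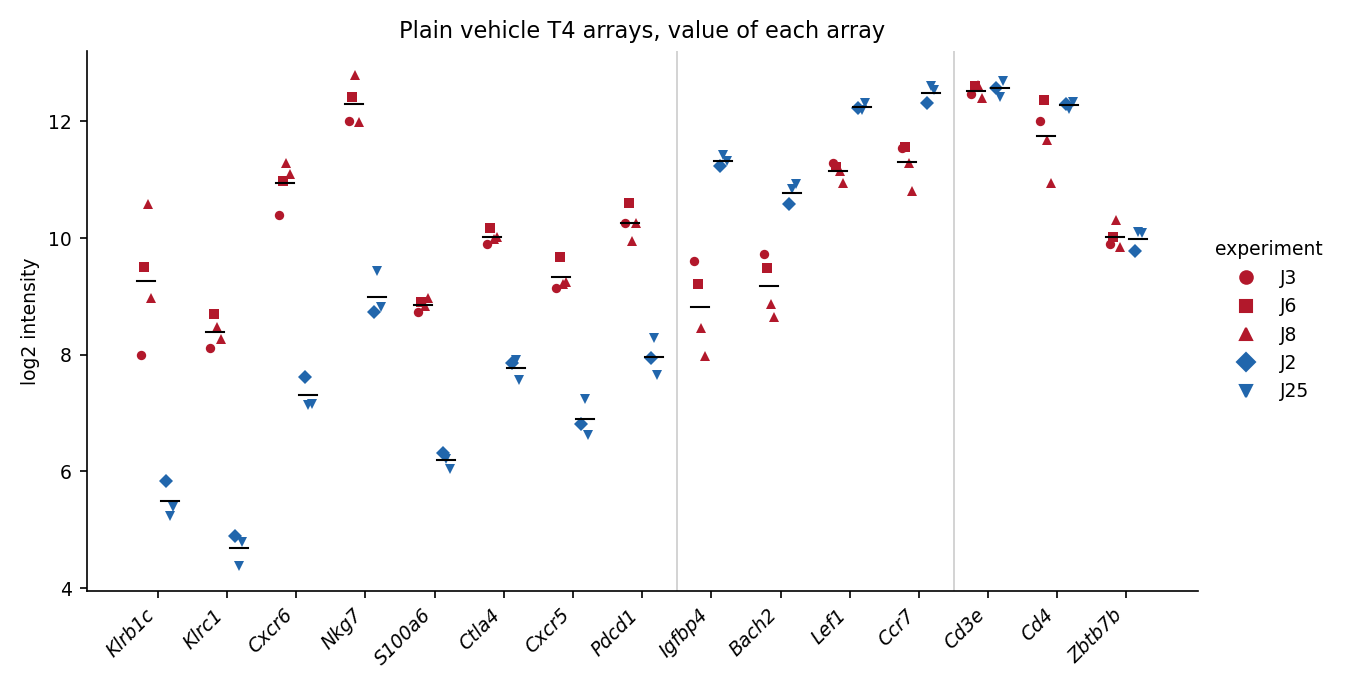
Values of 15 genes in the 7 plain vehicle T4 arrays: the y axis is log2 intensity, red points are J3, J6 and J8, blue points are J2 and J25, and bars are means. Cd3e, Cd4 and Zbtb7b overlap between the sets, while the other 12 genes do not.

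Genes of regulatory T cells were higher in J3/J6/J8. Of 14 genes, 13 were tested, with a median of 1.26. Among them 11 were higher (84.6%, against 8.7% over all tested genes) and none lower. Itgae entered through J3/J6/J8 alone, and 10 of the other 12 were higher. Foxp3, the lineage factor of regulatory T cells, had 10.68, 11.06, 10.72 and 10.14 in J3/J6/J8, against 9.81, 9.69 and 9.78 in J2/J25. Each J3/J6/J8 value was above each J2/J25 value, and the difference was 0.89 ± 0.20 (SE, adjusted p = 0.0248). Ctla4, an inhibitory receptor of regulatory and activated T cells, had 9.90, 10.17, 9.99 and 10.02 against 7.86, 7.91 and 7.56, a difference of 2.2 ± 0.14 (SE, adjusted p = 9.38e-05). Tnfrsf4, a costimulatory receptor, Capg, an actin-capping protein, and Itgae, an integrin chain, were higher by 1.65, 1.58 and 1.26. Gpr83 (-0.30) and Lrrc32 (0.83) did not pass.

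Genes of follicular helper T cells were also higher. Of 12 genes, 11 were measured and 10 tested, with a median of 1.24. Among these 10, 7 were higher (70%, against 8.7% over all tested genes) and none lower. Cxcr5, the receptor that leads T cells to B cell follicles, had 9.15, 9.68, 9.22 and 9.25 in J3/J6/J8, against 6.81, 7.24 and 6.63 in J2/J25. The sets did not overlap, and the difference was 2.43 ± 0.19 (SE, adjusted p = 0.000408). Pdcd1, an inhibitory receptor, had 10.25, 10.60, 9.95 and 10.25 against 7.95, 8.29 and 7.66, a difference of 2.3.

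Icos, a costimulatory receptor, Tox2, a nuclear factor, and Bcl6, the lineage factor of follicular helper T cells, were higher by 1.67, 1.36 and 0.95. Il21, the cytokine of these cells, had 7.64, 7.91, 5.35 and 8.6 in J3/J6/J8, against 5.59, 5.84 and 4.78 in J2/J25. Il21 entered the test through J3/J6/J8 alone. The J8.64 value lay among those of J2/J25, and the difference of 1.98 did not pass (adjusted p = 0.0987). Tox (0.57) and Slamf6 (0.44) did not pass either.

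Genes of innate-like and effector T cells were higher in part. Of 13 such genes, 11 were measured and 9 tested. Klrb1c, Cd160 and Ccr6 entered the test through J3/J6/J8 alone, so their calls say little about the list. Of the other 6, 4 were higher and none lower, against 8.7% higher and 2.45% lower over all tested genes. Klrb1c, which encodes the NK1.1 receptor of NK and NKT cells, had 7.99, 9.51, 10.59 and 8.98 in J3/J6/J8, against 5.84, 5.24 and 5.39 in J2/J25. J3.36 was lowest and J8.64 highest within J3/J6/J8, and the sets did not overlap (difference 3.78 ± 0.51, SE, adjusted p = 0.00271).

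Tbx21, the Th1 factor T-bet, had 9.95, 10.43, 11.30 and 9.54 in J3/J6/J8, against 7.69, 7.58 and 7.48 in J2/J25, a difference of 2.72. Zbtb16, the factor PLZF of innate-like T cells, had 9.30, 10.08, 10.83 and 9.64 against 8.21, 8.05 and 7.92, a difference of 1.90. Cd160, a receptor of NK and effector cells, and Rora, a nuclear receptor of type 17 and innate-like cells, were higher by 2.51 and 1.61. Il18r1 (0.65) and Sox13 (-0.11) did not pass. Of 10 genes of lymphoid tissue inducer cells, 5 were tested. The 2 higher were Tnfsf11 (1.13) and Cxcr5 (2.43), where 8.7% of all tested genes were higher.

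Other genes among the 15 largest measured rises were Klrc1 (3.70), an NK receptor chain, Trgv1 (3.24), a gamma chain segment of the T cell receptor, Xcl1 (3.14), a chemokine, Penk (3.02), the enkephalin precursor, and Il12rb2 (3.00), a chain of the IL-12 receptor. They were followed by Wfdc17 (2.82), Cysltr2 (2.68), a leukotriene receptor, and Klrg1 (2.68), an inhibitory receptor of effector cells. Rny1, a small noncoding RNA, was higher by 3.02. Klrc1, Klrb1c, Trgv1, Xcl1, Il12rb2, Rny1, Wfdc17 and Cysltr2 were under the array median on every J2/J25 array. They entered the test through J3/J6/J8 alone, so their place among the largest rises depended on being high there. Klrc1 had 8.12, 8.7, 8.48 and 8.27 in J3/J6/J8, against 4.90, 4.37 and 4.79 in J2/J25, with no overlap. Vehicle macrophage, dendritic cell and granulocyte sorts averaged 4.29, 4.85 and 4.67 for Klrc1, and 4.46, 4.81 and 4.82 for Klrb1c. The J2/J25 values of Klrc1 were thus at the level of those sorts, and those of Klrb1c close to it. Differences against such values may be understated, and the order of these genes by size is not read.

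Beside Igfbp4 and Bach2, the largest falls were those of Phxr4 (-2.33), Atp1b1 (-2.10), a sodium pump subunit, Amigo2 (-2.01), St8sia6 (-1.93), a sialyltransferase, Airn (-1.68), a noncoding RNA, and Ggt5 (-1.63). Vipr1 (-1.63), a neuropeptide receptor, Treml2 (-1.60), Als2cl (-1.57), Slc16a5 (-1.56), Cd55 (-1.55), a complement regulator, and Arhgap29 (-1.53) followed. Arhgap29 was under the array median on every J3/J6/J8 array, so it entered the test through J2/J25 alone. Atp1b1 had 9.26, 9.36, 8.7 and 8.7 in J3/J6/J8, against 10.98, 11.15 and 11.19 in J2/J25. Its sets did not overlap.

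T-box factors such as T-bet and Eomes bind promoters with a short motif, so the promoter windows of the largest rises were searched for its letters. The window ran from 250 bases before to 50 bases after the start in RefSeq (GRCm38.p6), and GGTGTGA was searched on both strands. Of the 15 largest rises, 10 had an entry and 2 held the letters, Nkg7 and Xcl1, printed here because Tbx21 and Eomes (1.12) were themselves higher, with the motif in capitals. The Nkg7 window is chr7:43436888-43437187 on the plus strand, and the Xcl1 window is chr1:164935473-164935772 on the minus strand.
Nkg7: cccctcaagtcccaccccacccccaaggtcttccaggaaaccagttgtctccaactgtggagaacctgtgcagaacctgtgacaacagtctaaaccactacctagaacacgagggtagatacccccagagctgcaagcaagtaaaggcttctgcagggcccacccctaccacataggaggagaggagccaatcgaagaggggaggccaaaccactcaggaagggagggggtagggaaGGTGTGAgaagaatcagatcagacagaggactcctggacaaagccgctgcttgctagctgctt
Xcl1: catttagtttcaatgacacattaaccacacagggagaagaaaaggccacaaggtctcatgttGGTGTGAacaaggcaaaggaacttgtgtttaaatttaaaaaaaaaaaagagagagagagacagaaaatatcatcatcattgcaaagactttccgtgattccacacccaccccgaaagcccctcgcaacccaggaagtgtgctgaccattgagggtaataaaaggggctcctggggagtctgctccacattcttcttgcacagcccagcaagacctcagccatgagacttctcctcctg

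The letters stood in 3.98% of 32851 promoter windows of all genes. They stood in 27 of the 711 higher genes with an entry (3.80%), in 9 of the 190 lower genes (4.74%) and in 4.04% of the 8298 tested genes. The share among higher genes was thus close to that of all windows, and a match is a description of letters, not a binding site.

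Of 68 microRNA genes tested, 16 were lower and none higher, with a median of -0.32. Over all tested genes, 2.45% were lower and 8.7% higher, with a median of 0.02. Mir505 had 9.85, 9.19, 8.10 and 10.23 in J3/J6/J8, against 10.89, 10.98 and 11.04 in J2/J25, a difference of -1.62 (adjusted p = 0.0438). The array's probe set carries the name of the microRNA gene, and the level of the mature forms was not measured. The mature forms in RefSeq (GRCm38.p6), at chrX:60394416-60394437 and chrX:60394451-60394473 on the minus strand, are shown with the seed, bases 2 to 8, in capitals.
mmu-miR-505-3p: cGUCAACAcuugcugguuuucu
mmu-miR-505-5p: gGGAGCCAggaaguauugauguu
Mir150, chosen after its values were seen, encodes a microRNA of mature lymphocytes and had 7.37, 7.38, 7.69 and 7.17 in J3/J6/J8, against 8.16, 8.22 and 8.39 in J2/J25, a difference of -0.85.

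Genes of dividing cells were higher in part. Of 18 cell cycle genes, 17 were measured and 15 tested, with a median of 1.01. Among these 15, 8 were higher (53.3%, against 8.7% over all tested genes) and none lower. Kif11, which entered through J3/J6/J8 alone, did not pass. Ccnb2, a mitotic cyclin, averaged 9.98 ± 0.33 in J3/J6/J8 and 7.95 ± 0.15 in J2/J25 (SD, n = 4 and 3), with no overlap. Rrm2, which makes deoxynucleotides, Mcm6, of the replication helicase, and Aurkb, a mitotic kinase, were higher by 1.31, 1.24 and 0.94. The count depended on single arrays: without J25.12 it was 3, and without J25.11 it was 4.

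Markers of other sorted cells fell into those low in both sets and those higher in J3/J6/J8. Ncr1, the NK cell receptor NKp46, had 4.77, 4.85, 5.41 and 4.65 in J3/J6/J8, against 5.15, 4.93 and 5.05 in J2/J25, while NK sorts of vehicle mice averaged 13.54. Klra8 and Gzma averaged 12.40 and 11.49 in those NK sorts and were under the median on all 7 T4 arrays. Of 14 NK genes, 13 were measured and 7 tested, of which 6 were higher. Klrb1c, Klrk1 (2.3), Gzmb (2.1) and Il18rap (1.85) entered through J3/J6/J8 alone. Of the other 3, Klrg1 (2.68) and Eomes (1.12) were higher, and Prf1 (-0.71), perforin, did not pass. In the T4 arrays of other agents, 7 NK genes were tested, with 6 higher and 1 lower, where 19% of all tested genes were higher and 13.3% lower. Klrb1c reached 7.99 to 10.59 in J3/J6/J8, against 11.99 in NK sorts, and is also carried by NKT cells. The mean level of the NK list was 6.35 to 7.06 in J3/J6/J8 and 5.65 to 5.78 in J2/J25, against 11.36 in NK sorts. A second list held the 50 genes with the largest excess of NK sorts over the other vehicle spleen sorts. Of these, 34 were tested, with 15 higher and 4 lower. Klrc1, Klrb1c, Gzmb, Trgv1, Xcl1 and Cd160 entered through J3/J6/J8 alone. Of the other 28, 9 were higher and 4 lower, against 8.7% and 2.45% of all tested genes.

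Several markers that define dendritic cells were low in both sets. Flt3 had 5.92 to 6.64 in J3/J6/J8 and 6.03 to 6.21 in J2/J25, against 11.57 in dendritic cell sorts. Itgax, Zbtb46, Xcr1, Clec9a and Siglech were under the median on all 7 arrays. Of the 12 conventional dendritic cell genes, 7 were tested, of which Slamf7 (2.58), Cst3 (1.25) and Bcl6 were higher and Ccr7 lower. Of 14 genes of CD4+ type 2 dendritic cells, 5 were tested and 2 were higher, Irf4 (1.69) and Cd209a (1.66). Of 12 genes of type 1 dendritic cells, 3 were tested and 2 were higher, Irf8 (1.28) and Itgae. Cd209a and Itgae entered through J3/J6/J8 alone, as did Cadm1, which did not pass. Of 15 genes of plasmacytoid dendritic cells, 14 were measured and 5 tested, with Ccr9 (2.05) higher and Atp1b1 (-2.10) lower. Of these, Irf4, Irf8, Bcl6, Ccr7 and Ccr9 are known in T cells too. Cd209a averaged 12.77 in dendritic cell sorts, and Cst3 averaged 13.52 there and 13.58 in macrophage sorts. Which cells these transcripts came from was not tested. The mean level of the conventional dendritic cell list was 8.05 to 8.25 in J3/J6/J8 and 7.74 to 7.84 in J2/J25, against 10.89 in dendritic cell sorts. A further list held the 50 genes with the largest excess of dendritic cell sorts over the other vehicle spleen sorts. Of these, 18 were tested, and Cd209a and Dnase1l3 (0.96), both higher, entered through J3/J6/J8 alone. Of the other 16, 6 were higher, among them Cd83 (2.10) and Asb2 (1.98). The 3 lower were H2-Ob (-0.79), Ccr7 and St8sia1 (-1.51). Over all tested genes, 8.7% were higher and 2.45% lower.

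Several B cell genes that define the lineage were low in both sets. Cd79a, Ms4a1 and Pax5 were under the median on all 7 arrays. Of 18 genes, 17 were measured, 10 were under the median on all 7 arrays and 5 were tested. The 3 higher were Cd22 (1.08), Cd79b (0.98) and Fcmr (0.66), where 8.7% of all tested genes were higher. A count over these 5 does not describe the whole list. Cd79b had 8.51, 8.91, 8.7 and 8.76 in J3/J6/J8, against 7.47, 8.0 and 7.76 in J2/J25. The list's level was 6.59 to 6.84 in J3/J6/J8 and 6.50 to 6.62 in J2/J25. No B cell sort was used here.

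Macrophage markers varied between arrays within each set. Lyz2, lysozyme of myeloid cells, had 8.05, 8.21, 10.46 and 8.89 in J3/J6/J8, against 5.86, 7.42 and 7.33 in J2/J25 (difference 2.03, adjusted p = 0.0627). C1qb, a complement component of macrophages, had 7.82, 7.58, 9.54 and 8.56 against 6.76, 8.42 and 8.49. J8.64 was highest for both, and J2.12 lowest. Of 15 red pulp macrophage genes, 5 were tested and 0 passed in limma's test. Of 14 monocyte genes, 7 were tested and 1 was higher, Ccr2 (2.35). Ccr2, Ace and Treml4 entered through J3/J6/J8 alone, and none of the other 4 was higher. Adgre1, a macrophage surface marker, was under the median on all 7 arrays. The mean level of the red pulp macrophage list was 6.35 to 7.32 in J3/J6/J8 and 6.00 to 6.81 in J2/J25, against 9.67 in macrophage sorts.

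MHC class II genes, which antigen-presenting cells use, were higher in J3/J6/J8. Of 10 genes, 8 were measured and 7 tested. Among these 7, 4 were higher and 1, H2-Ob (-0.79), lower, against 8.7% higher and 2.45% lower over all tested genes. H2-Aa had 8.99, 8.83, 10.05 and 8.88 in J3/J6/J8, against 6.34, 7.31 and 7.55 in J2/J25, where dendritic cell sorts averaged 13.43. Cd74, the invariant chain, and H2-Ab1 differed by 1.98 and 1.80, and H2-Oa by 0.89. H2-Eb1 (0.69) and H2-DMa (0.18) did not pass. J8.64, highest for H2-Aa, was also highest for Lyz2. Without J8.64, 4 class II genes were higher and 1 lower, as with it.

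**Figure D3:**
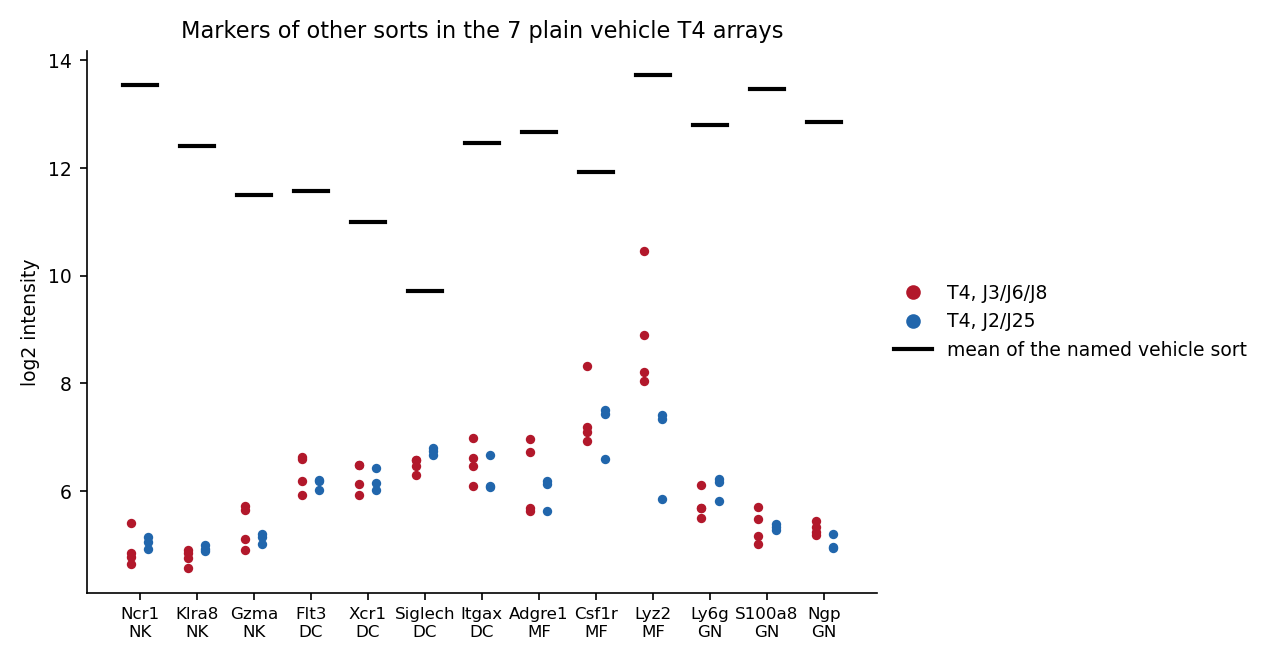
Markers of NK cell (NK), dendritic cell (DC), macrophage (MF) and granulocyte (GN) sorts in the 7 plain vehicle T4 arrays: the y axis is log2 intensity, red points are J3/J6/J8, blue points J2/J25, and black bars the mean of the named vehicle sort. Ncr1 lies between 4.65 and 5.41 in the T4 arrays and at 13.54 in NK sorts, and Lyz2 reaches 10.46 in J8.64.

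Lists of genes that respond to tissue handling, interferon or glucocorticoids were also counted. Of 14 immediate early genes tested, 1 was higher, Egr2 (0.78), a factor also induced by receptor signals, with a median of 0.12, while in the T4 arrays of other agents 8 of 14 were higher, with a median of 0.40 against -0.01 over all genes there. Of 9 heat shock genes, 1 was higher, Hspe1 (0.69). The shares of 7.14% of immediate early and 11.1% of heat shock genes were near the 8.7% higher over all tested genes. Of 13 interferon-stimulated genes, 3 were higher, Ifi27l2a (1.49), Mx1 (1.23) and Rsad2 (1.07), and 1 lower, Oas2 (-0.85), with a median of 0.20. Mx1 and Rsad2 entered through J3/J6/J8 alone. In the T4 arrays of other agents 4 interferon-stimulated genes were higher and 4 lower, where 19% of all genes tested were higher and 13.3% lower. Of 9 glucocorticoid-induced genes, 3 were higher, Zbtb16, Cxcr4 (0.92) and Klf9 (0.47), and 1 lower, Sgk1 (-0.48), with a median of 0.33. Of 11 circadian genes, Bhlhe40 (2.1) and Arntl (0.76) were higher, and Bhlhe40 is also a factor of effector T cells. Bhlhe40 entered through J3/J6/J8 alone.

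The same difference was measured in separate T4 arrays of the same experiments, from mice given SB00526221, SB00526222 or vehicle pH 3 for 14 or 15 treatments. There were 9 arrays of J3/J6/J8 and 5 of J2/J25, with the agent as a covariate and no array shared with the plain vehicle comparison. Except for J3.31 and J6.53, the J3/J6/J8 arrays were of J8, and except for J25.10, the J2/J25 arrays were of J2. The experiments are those of the plain vehicle arrays, so matching signs are not an independent measure of a difference between sets of experiments. In limma, 32.3% of 10662 genes were called, 19% higher and 13.3% lower. Of the 899 genes higher with plain vehicle, 893 were tested there and all 893 had a positive difference, with 826 called (91.9% of the 899, and 40.7% of the higher calls there). Of the 252 lower genes, 249 were tested and all 249 had a negative difference, with 224 called (88.9% of the 252, and 15.8% of the lower calls there). With experiment as a random block, 1628 genes were higher and 855 lower there, against 2027 and 1416 without it. Klrb1c, Cxcr6 and Igfbp4 differed by 3.98, 3.42 and -3.14 there.

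**Figure D4:**
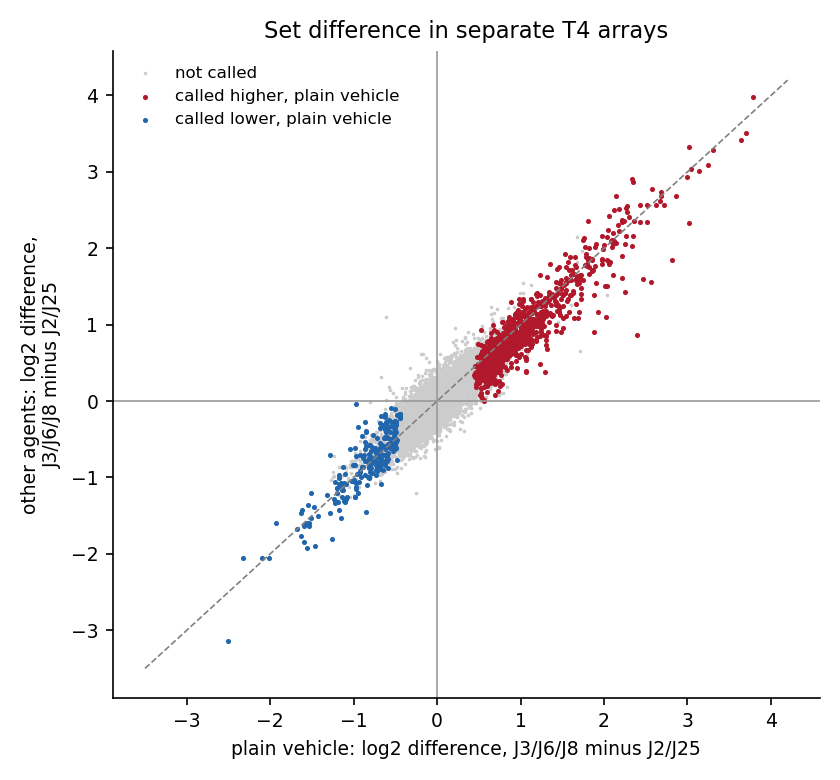
Set difference in plain vehicle arrays (x axis, log2, J3/J6/J8 minus J2/J25) against that in the arrays of other agents (y axis, same scale): each point is a gene, red for genes called higher and blue for genes called lower with plain vehicle, grey for the others, with a dashed line of equality. The 893 red genes lie above 0 and the 249 blue genes below 0 on the y axis.

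Across all 39 spleen T4 arrays, of every agent and schedule, the level of the T cell subset lists followed the title prefix. The mean of the activated and memory genes was 10.17 to 10.51 in 16 J3/J6/J8 arrays and 8.0 to 8.55 in 23 J2/J25 arrays. The mean of the naive genes was 9.98 to 10.93 in J3/J6/J8 and 11.48 to 11.81 in J2/J25. The mean of the shared T cell genes was 10.79 to 11.16 in J3/J6/J8 and 10.78 to 11.20 in J2/J25. The sets were apart for the subset lists and overlapped for the shared T cell genes. These levels are a description, since the 7 arrays are among the 39.

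**Figure D5:**
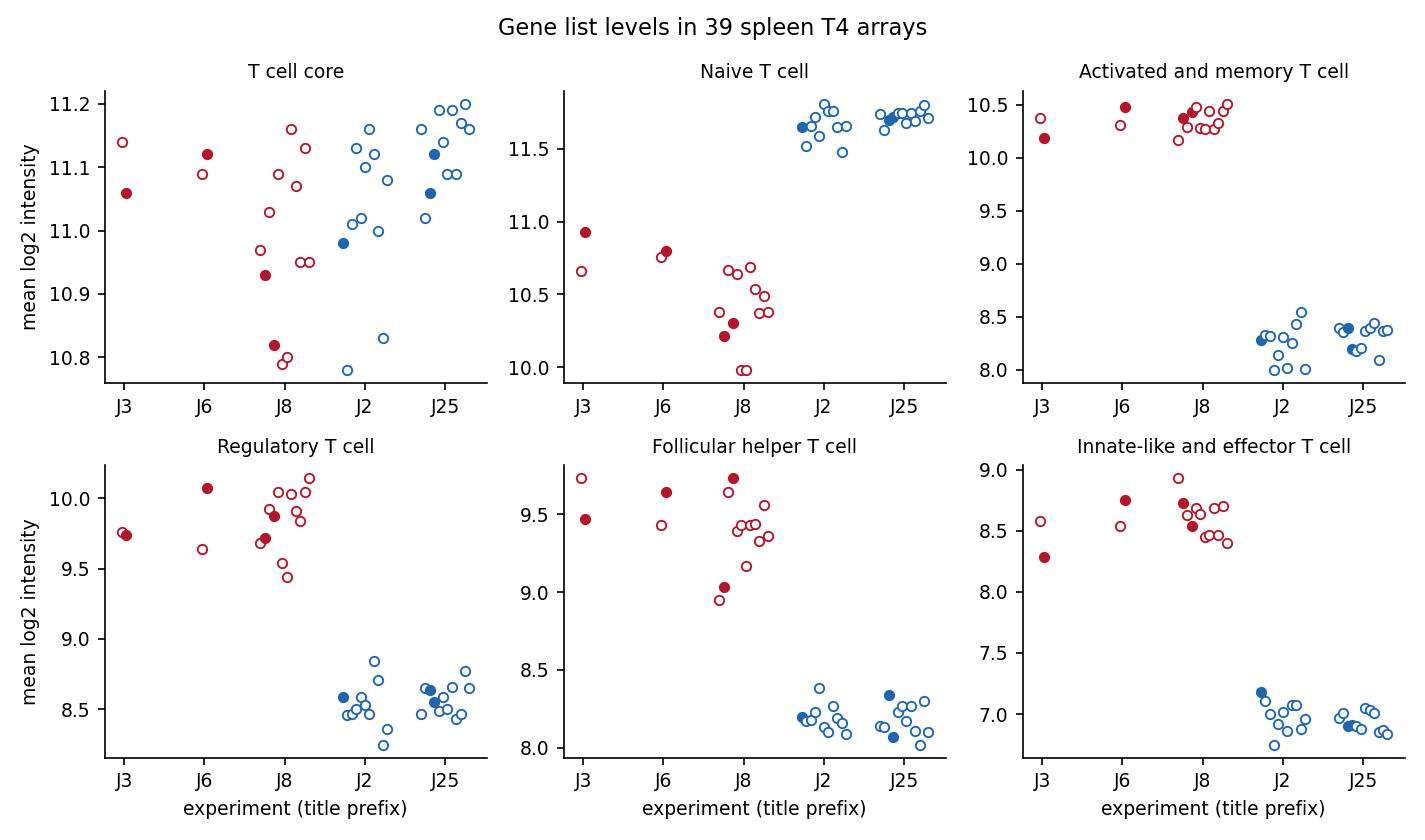
Mean log2 intensity of 6 gene lists (y axis) in 39 spleen T4 arrays by experiment (x axis): red J3, J6 and J8, blue J2 and J25, filled points the 7 plain vehicle arrays, open points the other 32. The T cell core levels overlap between the sets, and those of the other 5 lists do not.

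Dendritic cell sorts from plain vehicle mice came from fewer experiments, with 4 arrays of J3 and J6 against 2 of J2, and none of J8 or J25. They had 0 of 10037 genes called in limma, with 669 at an unadjusted p under 0.05. Of the genes higher in T4 arrays, 759 were tested there and 64.4% had a difference of the same sign, with a median of 0.14. Of the lower genes, 70.2% of 198 had the same sign. The matching shares and median over all 10037 genes were not computed, so these values are not read as a likeness of the cell types. The difference between the cell types was not tested.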

How the data were processed

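Spleen CD4 (T4) arrays were compared as 4 against 3. Per the submitters' processing notes, the authors processed the arrays with RMA in Affymetrix Power Tools, and the deposited intensity values are on a linear scale. The authors' values were taken to log2 without further normalization. Of 24922 probe sets, 21425 had 1 gene symbol, 1399 several and 2098 none. The probe set of highest mean stood for each of 19752 genes. Genes above the array median on at least 3 of the 7 arrays were tested with limma 3.58.1 in R 4.3.3 (lmFit, eBayes, Benjamini-Hochberg, 0.05). Simulated data with known changes were used to test the procedure. The members, lists and alternatives were chosen with earlier results of these data known. Named genes are the 15 largest rises and 15 largest falls, up to 4 members of each list by moderated t, and fixed markers; others, named where few members did not pass, were chosen after their values were seen. Experiments lie within sets, so whatever differed between the sets of experiments cannot be told apart from them. Alternatives changed normalization, offset, filter, weights, block, covariate and arrays.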

Additional observations from a re-analysis of the deposited data

Results flagged for a closer look

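Among 125 gene and gene list values tested within the 4 J3/J6/J8 arrays, 14 had an array standing apart from the other 3, where chance gives about 1 in 20. J8.64 stood apart in 7 of these: Cd55 (6.61), Il7r (11.12), Il18r1 (8.47) and Klf9 (7.27) were low, and Sox13 (7.89), H2-Aa (10.05) and Cd74 (10.95) were high. J8.66 stood apart for Vipr1 (8.12, low), Rrm2 (8.53, high), Cd209a (8.7, high) and Cxcr4 (10.36, high). J3.36 stood apart for Klrg1 (8.85) and Gzmb (7.14), both low. J6.56 stood apart for Sgk1 (7.64, low).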

How the results depend on the processing

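No paired analysis was possible because the labels give no replicate numbers, the numbers used here follow accession order and pair nothing, and no animal is in both sets. The plain vehicle count (1151; 899 higher, 252 lower) stayed within 1.5 times under quantile normalization, an offset of 50, no filter, the mean of probe sets and hours as covariate. It was 2425 (1646, 779) with experiment as a random block (consensus correlation -0.46), 4195 (2645, 1550) with array weights, 2618 (1772, 846) with vehicle pH 3 added, 5231 (2792, 2439) over all 39 T4 arrays, 16 (16, 0) without J25 and 1840 (1200, 640) without J8. Leaving out 1 array gave 394 to 1920 calls (352 to 1341 higher, 42 to 579 lower), namely 584 without J6.56, 1920 without J8.64, 543 without J2.12, 456 without J25.11 and 394 without J25.12. The cause was not tested. In the arrays of other agents, the count was 3443 (2027, 1416) and 2483 (1628, 855) with experiment as a random block. Agents alone gave fewer calls with fewer arrays: SB00526221 605 (488, 117), SB00526222 610 (484, 126) and vehicle pH 3 739 (498, 241). For dendritic cells, leaving out 1 array gave 0 to 15 calls (0 to 10 higher, 0 to 5 lower). Signs turned for these genes: with array weights Cd3e 0.01, C1qb -0.56 and Hmox1 -0.65, without J25 Klf2 0.09, without J8 C1qb -0.19 and Hmox1 -0.24, and leaving out 1 array gave Cd3e -0.12 to 0.02, C1qb -0.08 to 0.78 and Hmox1 -0.29 to 0.66 (negative without J2.12 for C1qb and Hmox1, -0.02 without J8.64 for Hmox1, positive without J25.12 for Cd3e); with SB00526221 alone Klf2 0.07, with SB00526222 alone Sox13 0.07, C1qb -0.31 and Hmox1 -0.08, and with vehicle pH 3 alone Cd4 -0.02 and Klf9 -0.02. Zbtb7b, at 0.03, had -0.05 with quantile normalization, -0.09 with array weights, -0.03 without J8 and -0.08 to 0.09 when 1 array was left out (negative without J2.12 and without J8.64). In the arrays of other agents its sign turned with experiment as a random block (0), with SB00526221 alone (0.32) and with vehicle pH 3 alone (0.05).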
